A study of Mus musculus with 2 samples.

Results

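The cells described here are lung myofibroblasts, taken as the cells that the deposited annotation gives this name and that have 500 or more detected genes and a mitochondrial share of 10% or less. There were 1177 such cells, 510 after a high fat diet (HFD) and 667 after normal chow (NC), of 14229 cells that passed this filter and 15986 deposited cells. Myofibroblasts are mesenchymal cells that combine matrix secretion with contractile proteins. In the mouse lung, cells of this name lie along alveolar ducts and airways, and they are known for Hhip, which binds and sequesters hedgehog ligands, for the matrix proteoglycan asporin (Aspn) and for Enpp2, also called autotaxin, which makes the lipid mediator lysophosphatidic acid. Hedgehog ligands come from the lung epithelium and act through the receptor Ptch1 and the Gli transcription factors, FGF18 is a growth factor of lung development, and Lgr5 and Lgr6 bind R-spondins and thereby raise WNT signalling. The data are single-cell transcriptomes, made with a droplet-based 3′ kit, of the fibroblastic stroma of lungs of C57Bl/6J mice that had been fed for 16 weeks with HFD (1 library) or NC (1 library). The number, age and sex of the animals behind each library are not given in the sources used here.

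The other classes of the annotation are Asc1, Gas6 and Pi16 fibroblasts and a class labelled pericytes. With 1 library per diet there is no replicate and no test, and every HFD over NC difference is between these 2 libraries. Intervals are 95% intervals for counting error only. Kept myofibroblasts held about 3551620 counts in HFD and about 3364220 in NC, with medians of 6617 and 4816 counts and 1032.5 and 960 genes per cell, so HFD cells were the deeper ones. Their median mitochondrial shares were 3.86% and 3.88%. No myofibroblast barcode was shared by the libraries, and 17 barcodes were shared over all deposited cells. A finer subset column of the annotation gave the same name to 514 of the 540 HFD and 667 of the 694 NC cells of the class before the filter. Another annotation column gave that name to 57 of the 540 HFD cells (10.6%) and 634 of the 694 NC cells (91.4%), so it goes against the class column in HFD, and it was not used. Just inside the filter lay cells with 511 genes in HFD and 500 genes in NC, or 9.98% and 9.87% mitochondrial counts, and just outside it cells with 458 and 485 genes, or 10.1% and 10.2%.

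Myofibroblasts made up a like share of the kept cells in both libraries. They were 8.38% of HFD cells (interval 7.69 to 9.10%) and 8.19% of NC cells (7.61 to 8.81%), so the intervals overlapped. Under a stricter filter, of 1000 or more genes and a mitochondrial share of 5% or less, the shares were 6.27% (5.51 to 7.09%) and 4.69% (4.13 to 5.30%), a limit that cuts near the median number of genes of these cells in both libraries.

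The 7 markers given for the class were checked against the other classes in CPM, counts scaled to the total of each class and library. Of them, 5 were at least 1.5 times the highest other class in both libraries, against 2.48% of the 13845 genes measured over all classes. The classes were made from the expression of these same cells, so these levels describe the class and test nothing. Hhip was at 5100.5 CPM in HFD and 4248 CPM in NC, which is 26.8 and 28.9 times the highest other class. Fgf18 was at 244 CPM in HFD and 166 CPM in NC, 40.3 and 40.6 times the highest other class. Aspn stood at 2354 CPM in HFD and 1654 CPM in NC, and Enpp2 at 1967 CPM in HFD and 1815 CPM in NC. Igfbp5, a binding protein of insulin-like growth factors, was at 1584 CPM in HFD and 1538 CPM in NC, above the class labelled pericytes by ratios of 4.44 and 4.86.

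The remaining markers did not separate the class from the one labelled pericytes. Mustn1, a small nuclear protein of the musculoskeletal system, was at 2023 CPM in HFD and 1555 CPM in NC in myofibroblasts and at 1475 CPM in HFD and 1024 CPM in NC in the class labelled pericytes. Lgr6 was lower in myofibroblasts, at 52.7 CPM in HFD and 49.9 CPM in NC, than in the class labelled pericytes, at 113 CPM in HFD and 65.1 CPM in NC. That class carried most of the contractile programme. Acta2, smooth muscle actin, was at 793 CPM in HFD and 989 CPM in NC in myofibroblasts and at 12769 CPM in HFD and 12126 CPM in NC in the class labelled pericytes. Summed over the 12 smooth muscle markers in the tables, myofibroblasts were at 3252 CPM in HFD and 4414 CPM in NC, and the class labelled pericytes at 30389.6 CPM in HFD and 29428 CPM in NC.

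Pdgfra, the receptor by which alveolar myofibroblasts are often traced in mice, was at 23.7 CPM in HFD and 23.2 CPM in NC in myofibroblasts, the lowest of the 5 classes in both libraries, and at 784 CPM in HFD and 785 CPM in NC in Asc1 fibroblasts. Of the 16 listed genes otherwise known from myofibroblasts of ducts and airways, 15 were measured over all classes, 2 (Tgfbi and Wnt5a) were highest in the class and 2 (Pdgfra and Fbln5) were lowest. Alveolar fibroblast genes were low, with 8 of 13 measured below every other class, against 4.95% of all genes measured. Inmt, a methyltransferase abundant in alveolar fibroblasts, was at 216 CPM in HFD and 200.05 CPM in NC, against 7161 CPM in HFD and 5449 CPM in NC in Asc1 fibroblasts. The 14 adventitial fibroblast markers summed to 2870 CPM in HFD and 2598 CPM in NC. Their sums were 538 and 787 CPM in Asc1, 1965 and 3086 CPM in Gas6, and 11650 and 12861 CPM in Pi16 fibroblasts. The cells thus carried Hhip, Aspn, Enpp2, Igfbp5 and Fgf18, with little Pdgfra and with Acta2 far below that of the class labelled pericytes. Where they lay in the tissue was not measured. Endothelial markers summed to 0.563 CPM in HFD and 4.46 CPM in NC, with Pecam1, Cdh5, Cldn5, Egfl7 and Ptprb at 0 in both, and epithelial markers to 14.6 and 2.38 CPM, with Epcam, Sftpc and Cdh1 at 0.

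**Figure D1:**
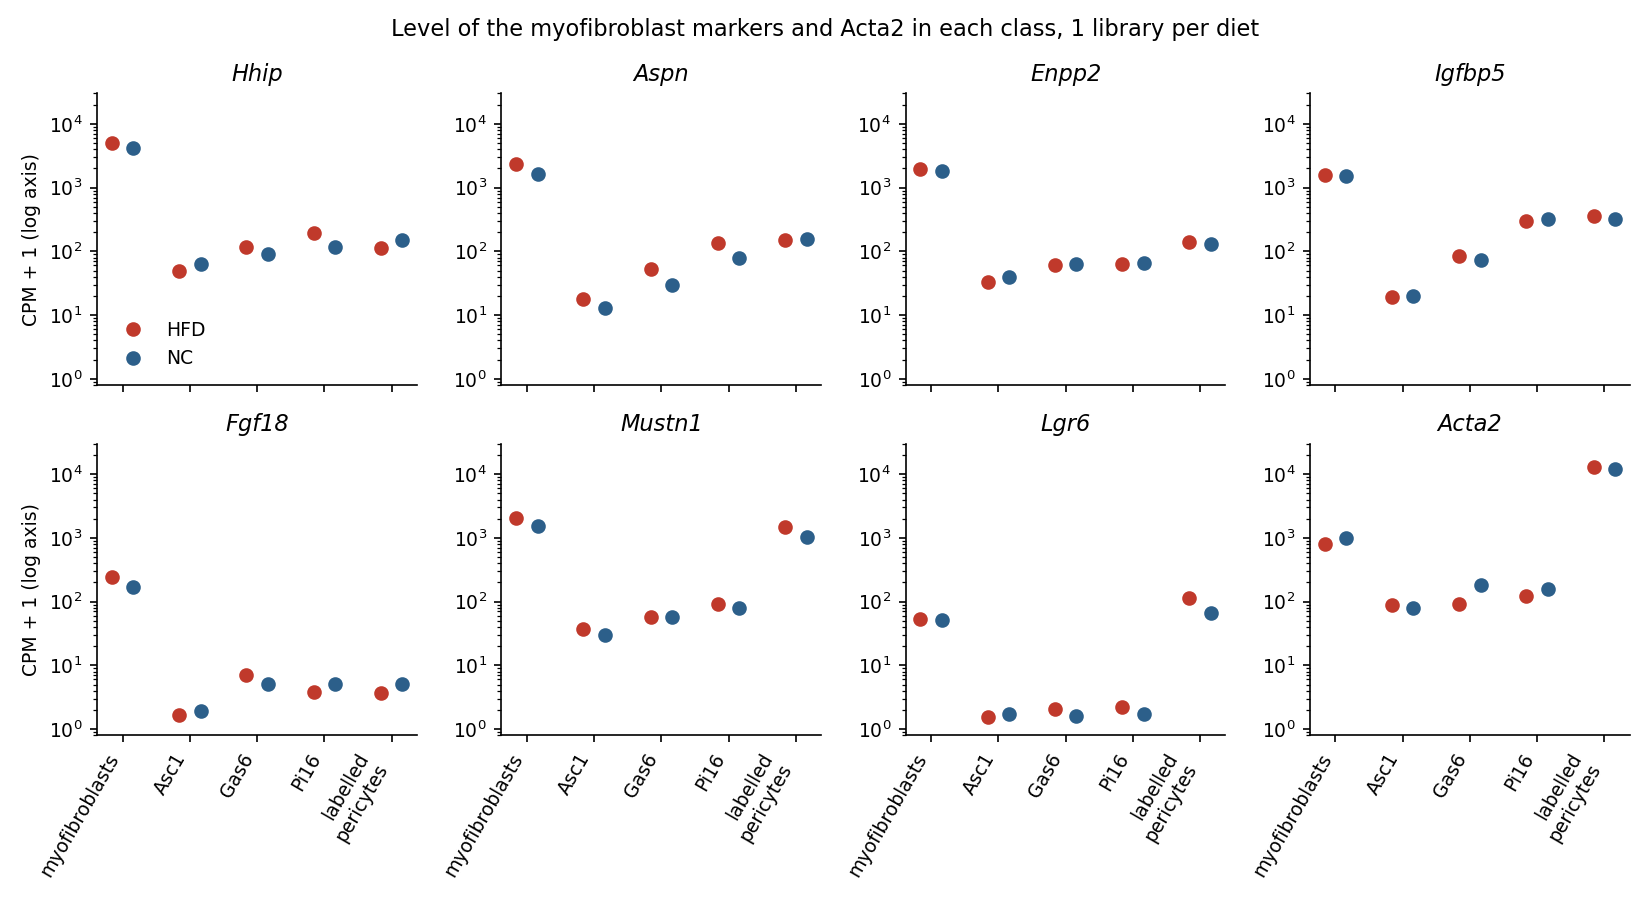
Level of the 7 markers and of Acta2 in each annotated class, as CPM plus 1 on a log axis, with 1 point per library (HFD left, NC right). Hhip, Aspn, Enpp2, Igfbp5 and Fgf18 are highest in myofibroblasts in both libraries, while Lgr6 and Acta2 are higher in the class labelled pericytes.

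Most single cells of the class carried several of the markers. After each cell was thinned to 2000 counts, Hhip was detected in 90.0% of HFD and 90.6% of NC myofibroblasts, and in 2.59% and 4.33% of Asc1 fibroblasts, which serve as background. Without thinning these shares were 92.2% and 92.7% in myofibroblasts and 4.33% and 6.63% in Asc1 fibroblasts, whose median depths were 8472.5 and 6340 counts. At least 3 of the 7 markers had a count in 453 of 510 HFD cells (88.8%) and 555 of 667 NC cells (83.2%). In Asc1 fibroblasts this held for 0.809% and 0.654% of cells. None of the markers had a count in 23 HFD and 18 NC myofibroblasts.

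The rarer markers were found in part of the cells. Fgf18 was detected in 22.4% of HFD and 15.1% of NC thinned myofibroblasts, and Lgr6 in 5.69% and 5.25%. Lgr5, the paralogue of Lgr6, had a count in 11.4% and 10.3%, against 0.162% and 0.277% of Asc1 fibroblasts. Cells with both Lgr5 and Lgr6 were rare, at 2 of the 58 HFD and 5 of the 69 NC cells with Lgr5. Lgr6 was counted in 3.45% and 7.25% of cells with Lgr5 and in 5.97% and 5.02% of cells without it, too few to read a relation at this depth.

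All genes were also ranked by the ratio to the highest other class, taking the lower of both libraries, and the first 25 were taken. The markers Fgf18, Hhip, Enpp2, Aspn and Igfbp5 were among these 25. The others, of which most are described here, were not given as markers and fell into a few kinds. Among receptors and signals, Lgr5 was at 122 CPM in HFD and 129 CPM in NC, with ratios of 28.7 and 22.6 to the highest other class. Efnb2, a membrane ligand of Eph receptors, was at 291 CPM in HFD and 124 CPM in NC. Cntfr, a receptor subunit for ciliary neurotrophic factor, and P2ry14, a receptor for UDP-sugars, were also among them.

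Enzymes formed another kind. Pnmt, which methylates noradrenaline to adrenaline, was at 292 CPM in HFD and 155 CPM in NC, 20.02 and 15.5 times the highest other class. Pde10a, a cyclic nucleotide phosphodiesterase, was at 346 CPM in HFD and 346 CPM in NC, and Cyp2e1, a cytochrome P450, at 520.0 CPM in HFD and 375 CPM in NC. Hpgd, which breaks down prostaglandins, was at 81.9 CPM in HFD and 66.6 CPM in NC. Csgalnact1, an enzyme of chondroitin sulfate synthesis, and the hydrolase Abhd2 were named as well.

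Adhesion, matrix and transcription factor genes made up most of the rest. Scx, or scleraxis, the transcription factor of tendon progenitors, was at 92.1 CPM in HFD and 76.1 CPM in NC, with ratios of 35.8 and 15.98. Cdh4, or R-cadherin, was at 214 CPM in HFD and 256 CPM in NC. Lumican (Lum), a small leucine-rich proteoglycan that binds collagen fibrils, was at 1312 CPM in HFD and 847 CPM in NC, 4.19 and 3.73 times the Pi16 fibroblasts. Col12a1, a collagen of tendon and ligament, Thbs2, a matricellular thrombospondin, and Spock2, a testican proteoglycan, completed this kind. Lcorl, 6330403K07Rik and Spp1 were also among the 25, and Spp1 came from a small set of cells described next.

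Among lists of signalling genes, those highest in the class included Wnt5a and Wnt11 (WNT ligands), Tcf7 (a WNT transcription factor) and Lgr5 of 26 measured WNT genes, and Bmp5, Ltbp3, Tgfbr3, Eng, Tgfbi and Aspn of 43 TGF-beta and BMP genes. Lowest in the class were Wnt2 and Fzd7 of the WNT genes and Ltbp1, Tgfbr2, Chrdl1 and Ccn5 of the TGF-beta and BMP genes. Igfbp3, Igfbp5, the IGF binding protein proteases Pappa and Pappa2, and Stc1, an inhibitor of these proteases, were highest of 17 IGF genes, and Stc2 was lowest. Over all genes measured, 2.48% were highest and 4.95% lowest in the class. Sox9, a transcription factor of cartilage and airway epithelium, was at 79.1 CPM in HFD and 61.2 CPM in NC, 3.2027 and 2.47 times the Pi16 fibroblasts. Gli1, a target of hedgehog signalling, was low in the class, at 4.50 CPM in HFD and 5.35 CPM in NC, against 42.2 CPM in HFD and 43.3 CPM in NC in Pi16 fibroblasts.

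Clustering of the myofibroblasts on genes centred per library split off a small set of cells in which most markers of the class were rare or not counted. At the lowest resolution used there were 2 clusters, of 1137 cells (491 in HFD and 646 in NC) and 40 cells (19 in HFD and 21 in NC). The small cluster made up 3.73% of HFD (2.26 to 5.76%) and 3.15% of NC myofibroblasts (1.96 to 4.77%), with overlapping intervals. Hhip had a count in 0 of its 40 cells, which allows up to 7.5% of cells with a count, against 1088 of the 1137 cells of the large cluster. Fgf18 and Lgr6 were also counted in none of the 40, which again allows up to 7.5%, against 277 and 106 of those 1137 cells. Fgf18 was thus rarer in the small cluster, while for Lgr6, rare in both, so few cells say little. Igfbp5 was counted in 1 cell, Aspn in 3 and Mustn1 in 4. Enpp2 was counted in 23 of the 40 cells, at 292 CPM in HFD and 746 CPM in NC, against 2027 and 1846 CPM in the large cluster. Its leading genes held the pericyte markers Higd1b, Cox4i2 and Ndufa4l2, with Spp1 (osteopontin), Postn (periostin) and Gucy1a1 (a subunit of soluble guanylate cyclase, the nitric oxide receptor), and it is called pericyte-like here. The finer subset column named 15 of these cells as SNAT2 fibroblasts, 12 as Asc1 fibroblasts and 12 as myofibroblasts.

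The levels of the pericyte-like cells stood far from those of the large cluster. Higd1b, a pericyte gene of the lung, was at 1976 CPM in HFD and 925 CPM in NC in the pericyte-like cells and at 0.292 and 0 CPM in the large cluster. Notch3, a receptor of mural cells, was at 794 CPM in HFD and 788 CPM in NC, against 1.17 and 4.59 CPM. Gucy1a1 was at 5491 CPM in HFD and 3689 CPM in NC, against 75.8 and 39.5 CPM. Rgs5, another pericyte gene, had no count in them in either library. The pericyte markers Kcnj8 and Abcc9 went the other way. Kcnj8 was at 16.2 CPM in HFD and 52.6 CPM in NC in them, against 94.8 and 206 CPM in the large cluster. Abcc9 was at 32.4 CPM in HFD and 42.0 CPM in NC, against 109 and 141 CPM. Their median depth was 5053.5 counts, close to the 5517 counts of the large cluster. These cells meet the rule for the class and were kept, and results that rest on them are given with and without them.

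**Figure D2:**
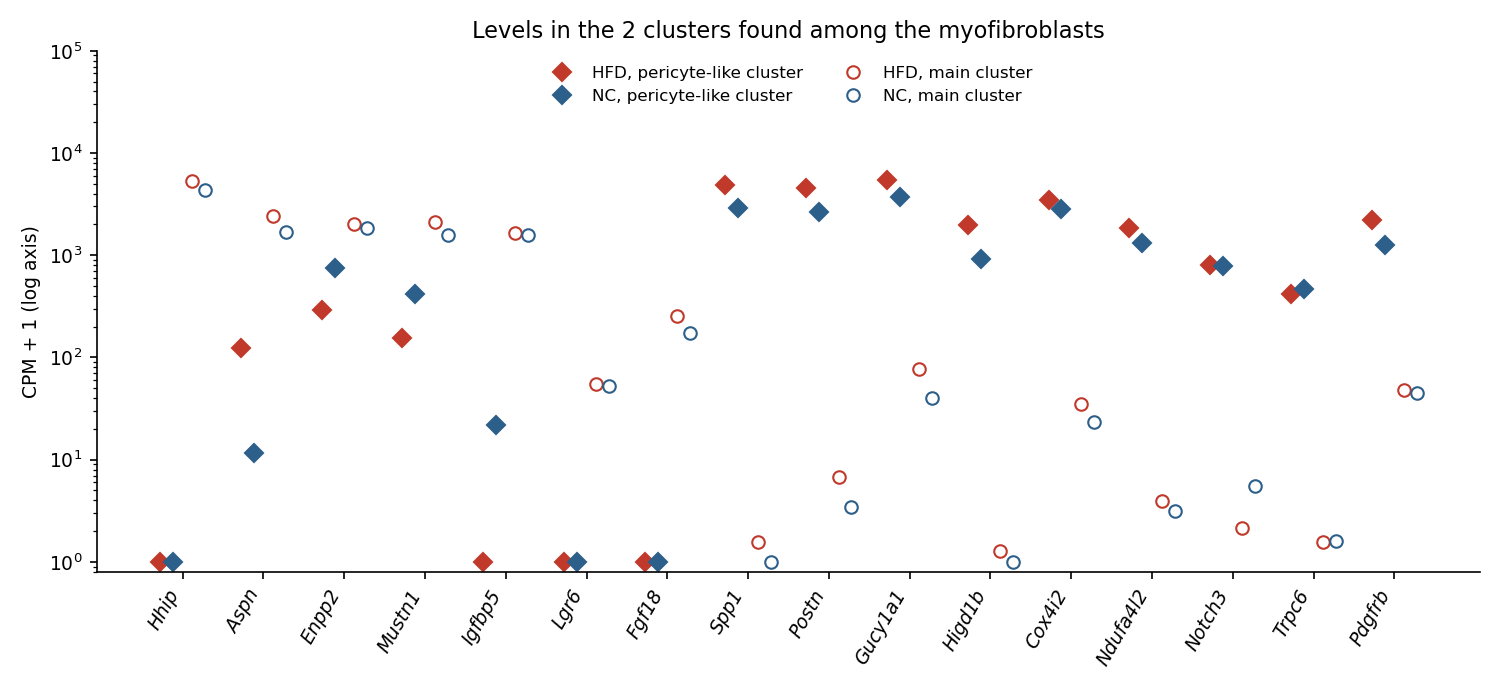
Levels, as CPM plus 1 on a log axis, in the pericyte-like cluster (filled diamonds, 19 HFD and 21 NC cells) and the large cluster (open circles, 491 HFD and 646 NC cells), with HFD in red and NC in blue. The markers of the class are at or near the bottom in the pericyte-like cells for Hhip, Lgr6 and Fgf18, and the 9 genes from Spp1 to Pdgfrb are high there in both libraries.

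At a finer resolution, added after the data were seen, the large cluster split mainly into 3 clusters that all carried Hhip and a set of 7 cells that did not. The cluster with the most cells, 194 in HFD and 244 in NC, led with genes of immune cells (Lyz2, Cd74, Cd52 and Tyrobp) beside Ccl11, Klf2, Plac8 and Apod. Over the whole class Lyz2 was counted in 5 HFD and 2 NC cells and Cd74 in 2 HFD and 5 NC cells, so few cells set these genes. No doublet caller was run, and the part of doublets or free RNA was not tested. Another cluster, of 172 HFD and 220 NC cells, led with Cnn1, Actg2, Acta2 and Tagln, contractile genes of smooth muscle. Acta2 was at 1258 CPM in HFD and 1712 CPM in NC in it and at 578 CPM in HFD and 621 CPM in NC in the cluster with the most cells. The remaining large cluster, of 123 HFD and 176 NC cells, led with the chemokines Ccl2 and Ccl7 and the metallothioneins Mt1 and Mt2. Hhip lay between 4389 and 5867 CPM in each of the 3 large clusters of either library. A set of 7 cells (2 in HFD and 5 in NC) carried cartilage genes such as Chad, Snorc, Ucma and Cnmd and had no count of Hhip, Enpp2, Mustn1, Fgf18 or Lgr6.

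Between the diets, most transcripts of myofibroblasts differed little. Of 4031 genes with at least 50 effective counts (counts divided by their measured overdispersion) over both libraries, 84.4% lay within a ratio of 1.5 and the median log2 ratio was 0.0043. Genes that differed by 1.5-fold or more are named higher or lower by size here, and 307 were higher in HFD (7.62%) and 320 were lower (7.94%). Each count of list members below is to be read beside these shares over all genes measured. None of the 7 markers of the class was called. All 7 lay above 1, with a median log2 ratio of 0.26, against 0.091 for the same genes in the pooled Asc1, Gas6 and Pi16 fibroblasts. Aspn was at 2354 CPM in HFD and 1654 CPM in NC (ratio 1.42, 1.33 to 1.53), Fgf18 at 244 CPM in HFD and 166 CPM in NC (1.47, 1.17 to 1.85) and Hhip had a ratio of 1.2007 (1.15 to 1.26).

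The genes highest in HFD were led by a sarcomere gene, an ephrin and a clock output gene. Tcap, or telethonin, a cap protein of the sarcomeric Z-disc, was at 412 CPM in HFD and 155 CPM in NC (ratio 2.65, 2.15 to 3.28), with a count in 109 HFD and 70 NC cells. The class labelled pericytes had it at 738 CPM in HFD and 186 CPM in NC. Efnb2 was at 291 CPM in HFD and 124 CPM in NC (2.35, 1.85 to 2.99), with a count in 183 HFD and 112 NC cells. After thinning, 25.5% of HFD and 11.99% of NC cells showed Efnb2, so more cells carried it in HFD at equal depth. Pdlim3, an actinin-binding LIM protein of muscle, was at 376 CPM in HFD and 199 CPM in NC (1.90, 1.56 to 2.31). Pnmt was at 292 CPM in HFD and 155 CPM in NC (1.89, 1.51 to 2.36). The ratio intervals of these genes excluded 1, and the ratios were 2.67 for Tcap, 2.36 for Efnb2, 1.91 for Pdlim3 and 1.90 for Pnmt without the pericyte-like cells.

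The rest of the genes at this end had broader roles. Dpm3, a subunit of dolichol-phosphate-mannose synthase, had a ratio of 2.07 (1.56 to 2.75), Crip1, a small LIM protein, of 1.65 (1.5020 to 1.81), and Uqcr10, a subunit of respiratory complex III, of 1.81 (1.48 to 2.22). The ratio of Mir682, whose reads may come from near-identical copies, was 2.41. Spp1 (2.07), Postn (2.08) and Gucy1a1 (1.85) were also named. The pericyte-like cells held all Spp1 counts in NC, where the large cluster was at 0 CPM, and left 0.583 CPM in HFD. Without them Postn was at 5.83 CPM in HFD and 2.45 CPM in NC, too few counts for a ratio. Gucy1a1 kept a ratio of 1.92 at 75.8 and 39.5 CPM. Without the pericyte-like cells, 9 of the 12 genes at this end and 11 of the 12 at the other would be named by the same rule.

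Genes lowest in HFD held chemokines, a growth factor and chaperones. Ccl7, a chemokine that attracts monocytes, was at 45.6 CPM in HFD and 177 CPM in NC (ratio 0.258, 0.172 to 0.377), and Ccl2, its neighbour in function, at 125 CPM in HFD and 366 CPM in NC (0.341, 0.267 to 0.431). Both rested on few cells, with Ccl7 counted in 20 HFD and 49 NC cells and the top 5 cells holding 65.4% and 35.8% of its counts. Without those top 5 cells per library the log2 ratio of Ccl7 was -2.82, and with the stricter cell filter -1.16, against -1.96. Igf1, insulin-like growth factor 1, was at 101 CPM in HFD and 303 CPM in NC (0.333, 0.254 to 0.433), with a count in 83 HFD and 228 NC cells. Errfi1, a feedback inhibitor of the EGF receptor that glucocorticoids induce, was at 262 CPM in HFD and 805 CPM in NC (0.325, 0.275 to 0.382). HFD was the lower library for each of these genes in the pooled other fibroblasts too.

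Of the other genes named at the low end, Crispld2, a secreted protein of lung mesenchyme that glucocorticoids induce, was at 159 CPM in HFD and 377 CPM in NC (0.422, 0.338 to 0.523). Tnfrsf12a, the receptor of the cytokine TWEAK, was at 213 CPM in HFD and 439.6 CPM in NC (0.484, 0.398 to 0.585). The ratios were 0.434 for the pseudokinase Trib1, 0.392 for the galactosyltransferase B4galt1, 0.448 for Rcan1, a regulator of calcineurin, and 0.306 for Mir6236, whose reads may also come from near-identical copies. Hspa5 and Manf, named by the same rule, are described with their list.

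**Figure D3:**
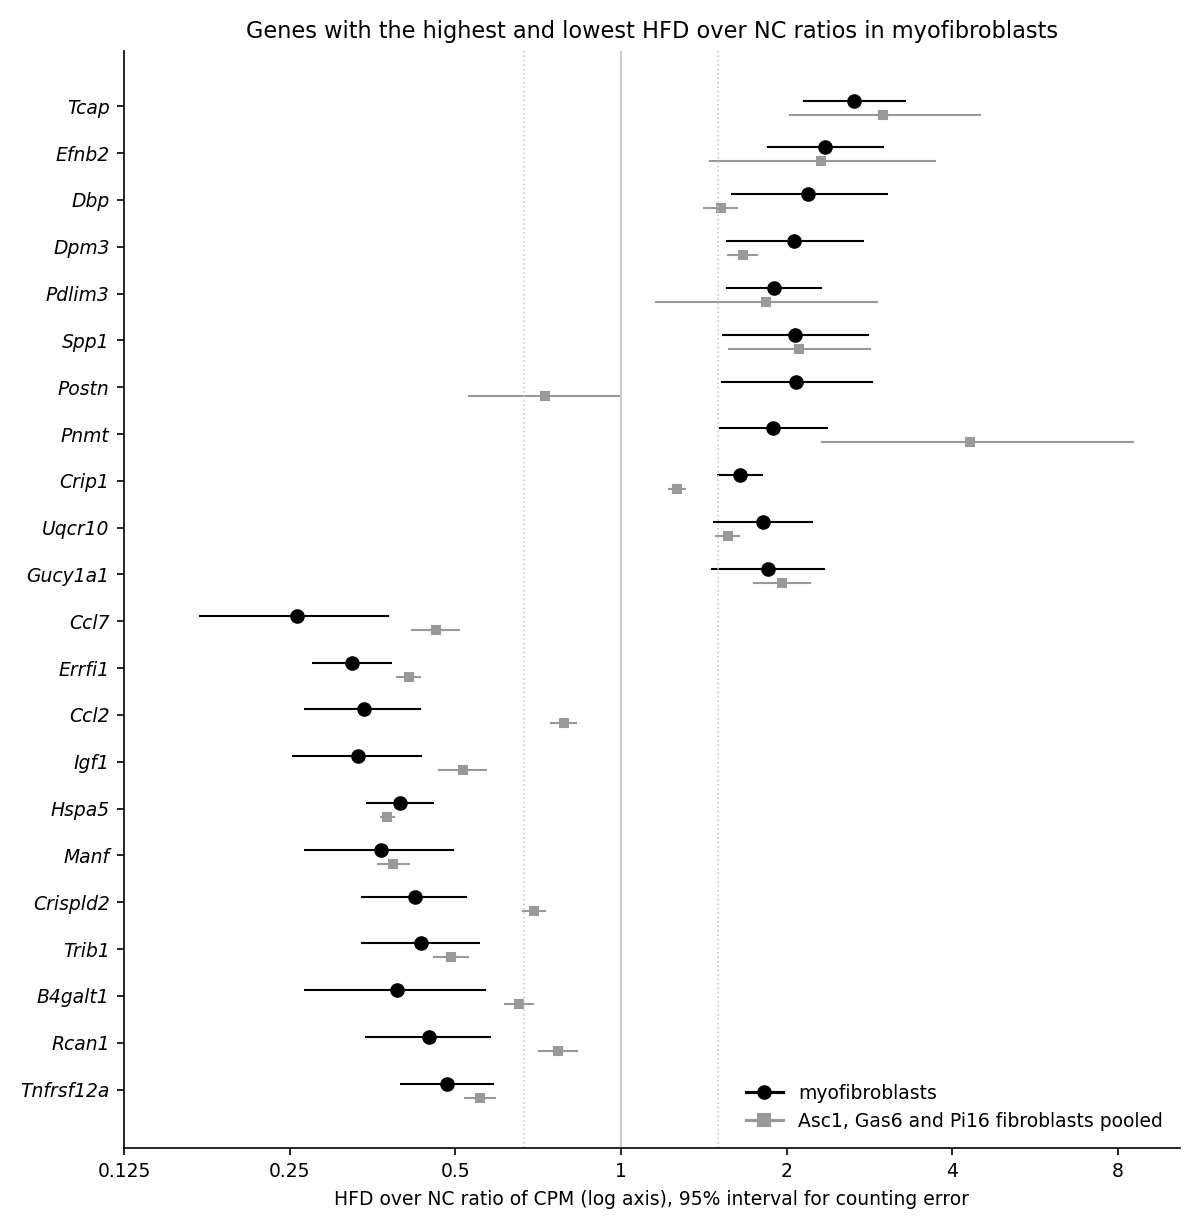
HFD over NC ratio of CPM on a log axis for the genes with the highest and lowest ratios in myofibroblasts (black circles), with the same genes in the pooled Asc1, Gas6 and Pi16 fibroblasts (grey squares) and 95% intervals for counting error, the miRNA genes left out. Dotted lines mark ratios of 1.5 and its inverse. Postn has a ratio above 1 in myofibroblasts, where it is carried by the pericyte-like cells, and below 1 in the other fibroblasts.

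Hedgehog and growth factor genes were followed by their roles. Of 6 measured hedgehog genes, 1 was higher and 1 lower by size, against 7.62% higher and 7.94% lower over all genes measured. Ptch1, the receptor that is itself induced by hedgehog signalling, was at 98.3 CPM in HFD and 43.1 CPM in NC (2.28, 1.51 to 3.50), and Boc, a coreceptor, at 55.5 CPM in HFD and 94.5 CPM in NC (0.587, 0.392 to 0.867). Ptch1 was also higher in HFD in the pooled other fibroblasts (1.62, 1.5002 to 1.76). Of 8 FGF genes 1 was higher, the ligand Fgf2 (1.58, 0.946 to 2.65), and 1 lower, the receptor Fgfr2 (0.660, 0.443 to 0.972). The interval of Fgf2 held 1, and Fgfr2 missed the limit with no cell filter, with the stricter filter and with thinning.

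Among 12 IGF genes, Igf1 and Pappa2, a protease that frees IGFs from their binding proteins, were lower. The shares over all genes measured were 7.62% higher and 7.94% lower. Pappa2 was at 24.8 CPM in HFD and 76.99 CPM in NC (0.322, 0.180 to 0.548), and leaving out the top 5 cells took its log2 ratio to -2.35, against -1.64. Stc1 was higher, at 44.8 CPM in HFD and 22.00 CPM in NC (2.04, 1.12 to 3.81). Igf1 and Pappa2 were still lower by size without the pericyte-like cells. None of the 11 IGF genes still measured then was higher, as Stc1 fell under the count minimum. The log2 ratio of Stc1 lay between 0.89 and 1.27 over the alternative runs. Of 10 WNT genes, the target Axin2 was higher (1.81, 1.05 to 3.1980) and the antagonist Sfrp1 lower (0.505, 0.283 to 0.868). Thinning took Sfrp1 just inside the limit.

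The TGF-beta and BMP list was split, with 5 of 32 measured genes higher by size and 5 lower. Among all genes measured, 7.62% were higher and 7.94% lower. Bambi, a decoy receptor that blunts TGF-beta and BMP signalling, was at 192 CPM in HFD and 106 CPM in NC (1.82, 1.39 to 2.40), and the ligand Tgfb3 at 82.8 CPM in HFD and 43.7 CPM in NC (1.89, 1.24 to 2.93). Ccn2, a profibrotic target also called CTGF, was at 122 CPM in HFD and 258 CPM in NC (0.471, 0.364 to 0.606), and the inhibitory Smad7 at 122 CPM in HFD and 232 CPM in NC (0.525, 0.404 to 0.678). Bmpr1a, Ltbp2 and Postn were the other genes higher, and Acvrl1, Id1 and Id4 the others lower. Leaving out the pericyte-like cells left 3 of 29 genes still measured higher and 4 lower. Ltbp2 was then under the count minimum, with a log2 ratio of -0.64. With the stricter cell filter Smad7 no longer passed the limit.

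Of 7 measured PDGF, ephrin and Notch genes, 4 were higher by size (Efnb2, Pdgfrb, Pdgfa and Notch2) and 1 lower, the ligand Pdgfc (0.483, 0.248 to 0.897). The shares over all genes measured were 7.62% higher and 7.94% lower. Pdgfrb, a receptor of pericytes, was at 122 CPM in HFD and 78.5 CPM in NC (1.56, 1.12 to 2.17), and at 46.96 and 43.7 CPM without the pericyte-like cells, where its ratio was 1.07. Without these cells 1 gene of 6 still measured was higher, Efnb2. Pdgfa then fell under the count minimum, at 38.2 CPM in HFD and 18.7 CPM in NC (2.05, 1.06 to 4.12). Notch2 had a ratio of 1.49 (0.884 to 2.52), just inside the limit. Hes1, an effector of Notch signalling, was at 111 CPM in HFD and 76.7 CPM in NC (1.44, 1.03 to 2.03), and its ratio in the pooled other fibroblasts was 2.07 (1.96 to 2.2014).

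The pericyte-like cells were named by Higd1b, Cox4i2 and Ndufa4l2, so leaving these cells out had to lower those markers. The cells held 99.6% of HFD and 100% of NC counts of Higd1b, and 62.9% and 45.8% of those of Pdgfrb. Of 9 pericyte markers measured, 5 were higher by size (Pdgfrb, Higd1b, Cox4i2, Mcam and Ndufa4l2) and 2 lower (Cspg4 and Kcnj8), with a median log2 ratio of 0.60. The shares over all genes measured were 7.62% higher and 7.94% lower. Higd1b was at 68.98 CPM in HFD and 26.2 CPM in NC (2.64, 1.57 to 4.57), in 19 HFD and 14 NC cells. Without the pericyte-like cells none of the 4 still measured was higher and 1 was lower. This was Kcnj8, a potassium channel subunit, at 94.8 CPM in HFD and 206 CPM in NC (0.459). Higd1b, Cox4i2, Mcam and Ndufa4l2 then fell under the count minimum, so their ratios could not be called. Cox4i2 was at 34.4 CPM in HFD and 22.6 CPM in NC then (1.52, 0.797 to 2.95). Summed over the 13 pericyte markers, myofibroblasts were at 839 CPM in HFD and 779 CPM in NC. The part of these cells in other results was measured by leaving them out.

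Contractile genes tended to be lower in HFD. Of 20 measured, 4 were lower by size and 1 higher, 16 lay below a ratio of 1, and the median log2 ratio was -0.20. Among all genes measured, 7.94% were lower and 7.62% higher. Myocd, the coactivator that drives the smooth muscle programme, was at 22.8 CPM in HFD and 46.4 CPM in NC (0.492, 0.260 to 0.893), in 19 HFD and 48 NC cells. Tagln, an actin-binding protein of smooth muscle, was at 1706 CPM in HFD and 2469.5 CPM in NC (0.691, 0.644 to 0.741) and Acta2 at 793 CPM in HFD and 989 CPM in NC (0.802, 0.720 to 0.892), both inside the limit. Lmod1, an actin nucleator of smooth muscle (0.636, 0.399 to 0.995), Pdlim7, a LIM protein of actin fibres (0.599, 0.386 to 0.913), and Myh11, smooth muscle myosin (0.659, 0.485 to 0.891), were lower by size, and Pdlim3 was the gene that was higher. Myocd missed the limit with the stricter cell filter, and Myh11 with no filter, with thinning or without the pericyte-like cells. The smooth muscle markers, which share Acta2, Myh11, Tagln, Lmod1, Myocd and others with this list, summed to 3252 CPM in HFD and 4414 CPM in NC, and the part of smooth muscle cells in these values was not tested. Of 5 sarcomere genes, Tcap was higher and Tpm3 lower (0.659, 0.533 to 0.811).

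**Figure D4:**
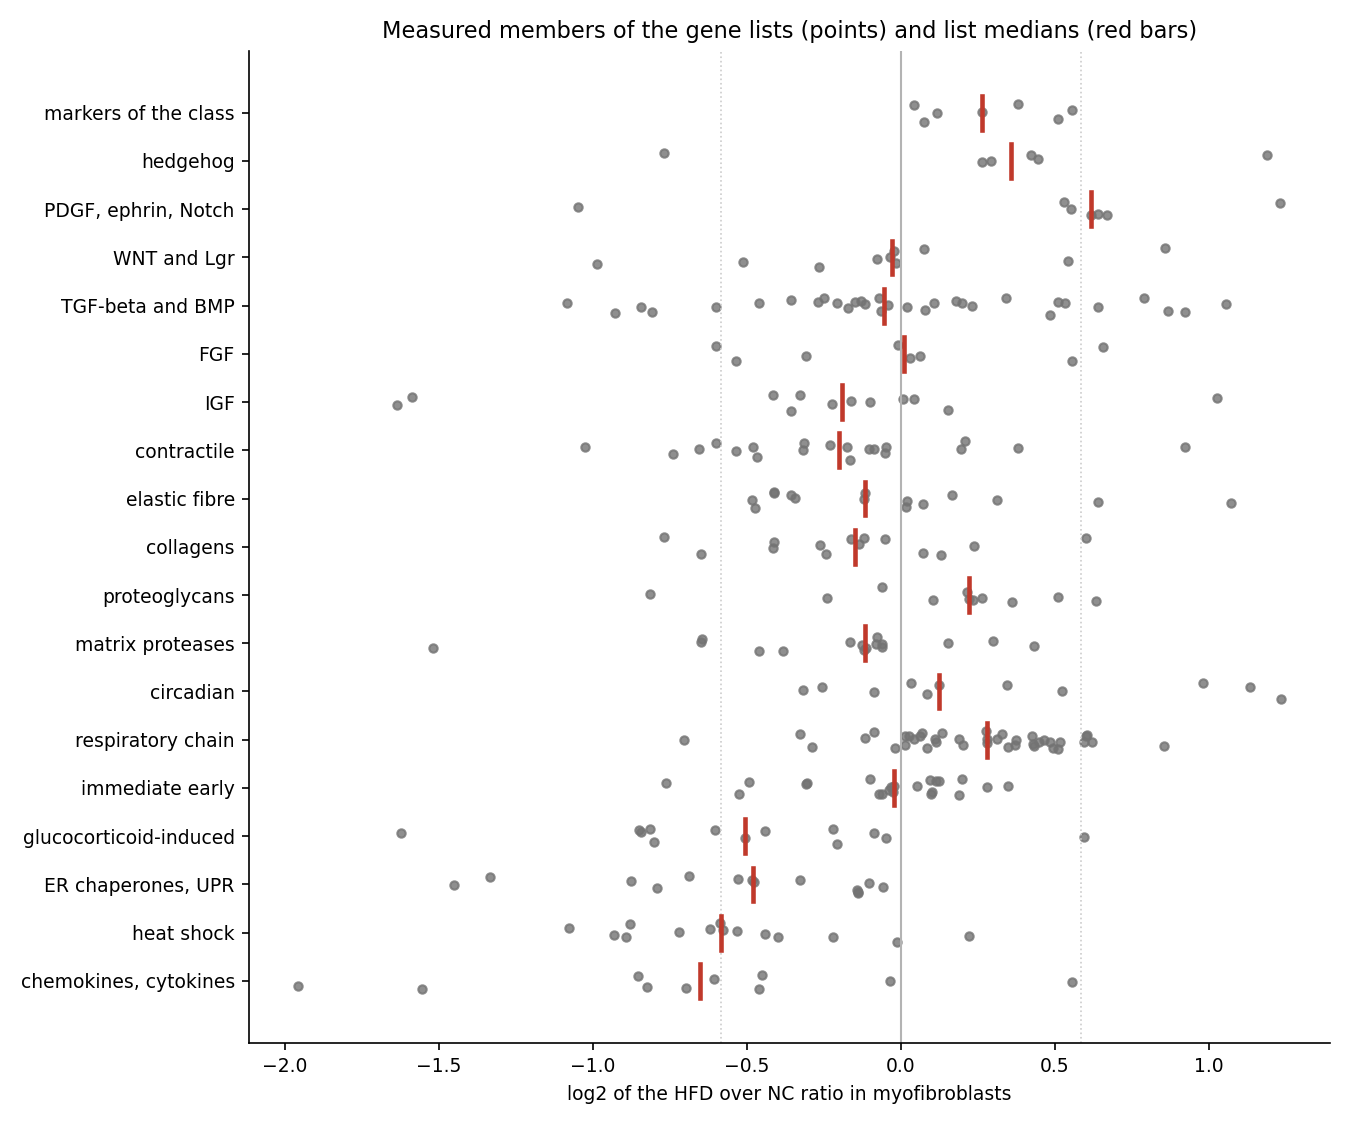
Log2 of the HFD over NC ratio in myofibroblasts for the measured members of 19 gene lists (grey points, spread vertically for legibility) with list medians (red bars). Dotted lines mark a ratio of 1.5 in either direction. Medians lie below 0 for chaperone, heat shock, glucocorticoid-induced and chemokine genes and above 0 for respiratory chain genes.

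Clock genes gave 3 of 11 measured members that were higher by size and none that was lower, against 7.62% and 7.94% of all genes measured. Dbp, a transcription factor whose transcript follows the clock, was at 158 CPM in HFD and 71.9 CPM in NC (2.19, 1.59 to 3.04), in 95 HFD and 59 NC cells. Per3, a period protein, was at 52.4 CPM in HFD and 22.3 CPM in NC (2.35, 1.32 to 4.32), and Tef, a relative of Dbp, at 65.04 CPM in HFD and 32.99 CPM in NC (1.97, 1.21 to 3.27). HFD was the higher library for all 3, and the intervals excluded 1. In the pooled other fibroblasts the ratios were 1.52 for Dbp, 1.2038 for Per3 and 1.23 for Tef. Nr1d1, a clock repressor, had a ratio of 1.44 (1.04 to 2.0021). The time of day at which tissue was taken is not given in the sources used here, and its part in these values was not tested.

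These promoters are shown because clock factors act through 2 short motifs, the E-box CACGTG, bound by CLOCK and BMAL1, and the D-box TTATGTAA, bound by DBP and TEF. Both strands of windows from 250 bases before to 50 after each start were searched in RefSeq sequences of GRCm38.p6. The E-box was found in 7.15% and the D-box in 0.938% of all 32851 windows. Counted by gene, the shares were 8.09% and 1.11% of 27025 genes. Of 10 measured clock genes with a window, 2 held an E-box (Per1 and Tef) and 1 a D-box (Per3). Capitals mark the motifs, 2 D-boxes in Per3 (chr4:151044616-151044915, minus strand) and 1 E-box in the window of the second listed start of Tef (chr15:81811164-81811463, plus strand). The window of Dbp held neither run of letters.
Per3: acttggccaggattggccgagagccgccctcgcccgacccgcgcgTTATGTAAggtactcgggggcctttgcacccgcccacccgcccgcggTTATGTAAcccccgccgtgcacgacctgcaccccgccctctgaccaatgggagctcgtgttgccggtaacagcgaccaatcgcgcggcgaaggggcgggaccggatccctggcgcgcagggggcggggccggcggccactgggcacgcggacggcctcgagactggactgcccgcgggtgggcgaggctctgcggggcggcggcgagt
Tef: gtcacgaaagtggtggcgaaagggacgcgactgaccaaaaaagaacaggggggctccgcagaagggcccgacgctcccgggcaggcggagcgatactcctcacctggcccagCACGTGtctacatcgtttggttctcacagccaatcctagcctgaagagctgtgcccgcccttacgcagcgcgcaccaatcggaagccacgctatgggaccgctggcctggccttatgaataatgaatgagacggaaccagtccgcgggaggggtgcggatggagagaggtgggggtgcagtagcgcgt

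Chaperones of the endoplasmic reticulum and genes of the unfolded protein response were lower in HFD as a list. Of 14 measured, 5 were lower by size and none was higher, against 7.94% lower and 7.62% higher over all genes measured. All 14 lay below a ratio of 1, and the median log2 ratio was -0.48, against -0.53 for the same genes in the pooled other fibroblasts. Hspa5, the main chaperone of this compartment, was at 383 CPM in HFD and 965 CPM in NC (0.397, 0.345 to 0.455), in 227 HFD and 437 NC cells. Manf, a secreted factor induced by stress there, was at 77.7 CPM in HFD and 212 CPM in NC (0.366, 0.267 to 0.496). Pdia6, a disulfide isomerase, was at 111 CPM in HFD and 203 CPM in NC (0.545, 0.413 to 0.714), the calcium-binding chaperone Calr at 197 CPM in HFD and 317 CPM in NC (0.621, 0.504 to 0.763) and the transcription factor Xbp1 had a ratio of 0.578 (0.392 to 0.842). HFD was the lower library for each of them, and the same 5 were lower without the pericyte-like cells.

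Promoters of 3 of these genes are shown because their windows hold the endoplasmic reticulum stress response element (CCAAT, then 9 bases of any kind, then CCACG), which is bound by ATF6 with NF-Y. It was found on either strand in 0.119% of all windows, and in a window of 0.137% of all genes. Of the 13 measured genes of the list with a window, 6 held it (Calr, Canx, Dnajc3, Hsp90b1, Hspa5 and Pdia6). The window of Xbp1 did not hold these letters. Capitals mark the element in Hspa5 (chr2:34771840-34772139, plus strand), Pdia6 (chr12:17266339-17266638, plus strand) and Calr (chr8:84846882-84847181, minus strand, where the element reads on the opposite strand). A match of letters is a description and not a measured site.
Hspa5: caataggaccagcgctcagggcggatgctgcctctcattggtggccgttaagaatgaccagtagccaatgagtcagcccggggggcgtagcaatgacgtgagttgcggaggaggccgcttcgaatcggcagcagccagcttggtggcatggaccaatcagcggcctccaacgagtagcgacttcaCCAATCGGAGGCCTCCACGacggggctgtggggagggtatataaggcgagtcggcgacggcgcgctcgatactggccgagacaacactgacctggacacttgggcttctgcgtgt
Pdia6: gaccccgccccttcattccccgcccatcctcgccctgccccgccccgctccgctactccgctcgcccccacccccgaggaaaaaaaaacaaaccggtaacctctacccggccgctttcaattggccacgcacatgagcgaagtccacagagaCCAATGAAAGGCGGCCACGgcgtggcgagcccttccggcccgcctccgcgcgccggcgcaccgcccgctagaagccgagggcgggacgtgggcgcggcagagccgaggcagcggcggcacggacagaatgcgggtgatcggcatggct
Calr: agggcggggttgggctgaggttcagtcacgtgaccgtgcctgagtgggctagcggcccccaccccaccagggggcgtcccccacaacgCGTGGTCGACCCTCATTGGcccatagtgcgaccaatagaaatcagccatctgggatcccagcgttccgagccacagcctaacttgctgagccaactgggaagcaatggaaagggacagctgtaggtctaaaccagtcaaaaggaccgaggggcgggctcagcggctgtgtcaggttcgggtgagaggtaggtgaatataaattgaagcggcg

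Cytosolic heat shock genes were lower in 7 of 14 measured members, with none higher and a median log2 ratio of -0.58. Among all genes measured, 7.94% were lower and 7.62% higher. Hspa1a, an inducible HSP70, was at 408 CPM in HFD and 778 CPM in NC (0.524, 0.455 to 0.602), though its near-identical copy Hspa1b can share reads with it. Hsp90aa1, an inducible HSP90, was at 429 CPM in HFD and 789 CPM in NC (0.543, 0.473 to 0.622), and Hspb8, a small heat shock protein, at 48.7 CPM in HFD and 103 CPM in NC (0.474, 0.311 to 0.707). Of these, 5 were lower without the pericyte-like cells. Immediate early genes, which also respond to cell dissociation, gave 1 of 22 lower, Ier5 (0.590, 0.481 to 0.721), none higher, and a median log2 ratio of -0.023. How the tissue was dissociated in each library is not given in the sources used here, and its part in these values was not tested.

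Glucocorticoid-induced genes were lower in 6 of 13 measured members and higher in 1, against 7.94% lower and 7.62% higher over all genes measured. Besides Errfi1, Tsc22d3, or GILZ, was at 104 CPM in HFD and 186 CPM in NC (0.557, 0.418 to 0.737), the metallothionein Mt2 at 615 CPM in HFD and 1083 CPM in NC (0.568, 0.507 to 0.637) and the transcription factor Klf9 at 298 CPM in HFD and 453 CPM in NC (0.658, 0.555 to 0.779). Sgk1, a kinase, and Fkbp5, a cochaperone of the receptor, were the others lower. Nr3c1, the glucocorticoid receptor itself, listed beside the genes it induces, was the gene that was higher. It was at 145 CPM in HFD and 96.01 CPM in NC (1.51, 1.12 to 2.04). Tsc22d3 missed the limit after thinning and Klf9 without the pericyte-like cells, and 5 were lower and none higher without those cells.

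Chemokines and cytokines of stroma were lower in 6 of 10 measured members, with none higher. Among all genes measured, 7.94% were lower and 7.62% higher. The list had a median log2 ratio of -0.65, against -0.38 in the pooled other fibroblasts. Besides Ccl2 and Ccl7, Il6, interleukin 6, was at 72.4 CPM in HFD and 128 CPM in NC (0.565, 0.399 to 0.792), in 38 HFD and 75 NC cells. Csf1, the macrophage growth factor, had a ratio of 0.554 (0.317 to 0.939) and Tnfsf13b, or BAFF, of 0.616 (0.334 to 1.10). Cxcl1, a neutrophil chemokine, was at 174 CPM in HFD and 265 CPM in NC (0.657, 0.524 to 0.820), and its log2 ratio was -0.14 with the stricter cell filter. Of 9 still measured without the pericyte-like cells, 5 were lower. The 9 immune markers summed to 143 CPM in HFD and 75.5 CPM in NC, with Ptprc, Cd3e and Csf1r at 0 in both. Both immune markers with enough counts to be measured, Lyz2 and Plac8, were higher by size in HFD. Lyz2 had 272 counts in HFD, 94.1% of them in 1 cell, and 2 counts in NC, and Plac8 was at 63.9 CPM in HFD and 30.9 CPM in NC (2.07, 1.25 to 3.48), with 52.4% of its HFD counts in 1 cell. The part of immune cells in the chemokine values was not tested.

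Nuclear-encoded subunits of the respiratory chain were slightly higher in HFD as a list. Of 40 measured, 34 lay above a ratio of 1, 5 were higher by size and 1 lower, and the median log2 ratio was 0.28, against 0.36 in the pooled other fibroblasts. The shares over all genes measured were 7.62% higher and 7.94% lower. Uqcr10 was at 339 CPM in HFD and 187 CPM in NC, Cox6b1, of complex IV, at 354 CPM in HFD and 230.4 CPM in NC (1.54, 1.27 to 1.86), and Cox7c, of the same complex, at 341 CPM in HFD and 225 CPM in NC (1.52, 1.25 to 1.84). Cox5a, also of complex IV, was the gene that was lower (0.613, 0.454 to 0.822). Cox6b1 and Cox7c missed the limit with the stricter cell filter.

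Matrix genes differed about as often as all genes measured, of which 7.62% were higher and 7.94% lower. Of 14 collagens 1 was higher and 2 lower. Col5a1 and Col5a2, chains of the fibril-nucleating type V collagen, were at 66.4 CPM in HFD and 113 CPM in NC (0.587, 0.407 to 0.837) and at 101 CPM in HFD and 158 CPM in NC (0.637, 0.473 to 0.853). Col3a1 was at 820.5 CPM in HFD and 1095 CPM in NC (0.749, 0.675 to 0.831), inside the limit. Among 11 proteoglycans, Lum was higher, at 1312 CPM in HFD and 847 CPM in NC (1.55, 1.41 to 1.71), and Sdc4, a heparan sulfate syndecan, lower, at 656 CPM in HFD and 1153 CPM in NC (0.569, 0.509 to 0.636). Of 15 elastic fibre genes, Emilin1, which sits between elastin and microfibrils (2.10, 1.31 to 3.44), and Ltbp2 were higher and none was lower. Without the pericyte-like cells, Ltbp2 left this count, Fbn1 (fibrillin 1) was lower among the elastic fibre genes, and Col4a1 joined the lower collagens.

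The diet ratios of myofibroblasts were then set beside those of the pooled Asc1, Gas6 and Pi16 fibroblasts. Of 2158 genes with at least 100 effective counts in myofibroblasts, 109 (5.05%) had an interval wholly above that of the other fibroblasts and 91 (4.22%) wholly below. With 1 library per diet the difference between classes has no replicate test. Metrnl, a secreted meteorin-like protein, was at 95.7 CPM in HFD and 47.3 CPM in NC in myofibroblasts (2.03, 1.35 to 3.07) and at 15.3 CPM in HFD and 25.8 CPM in NC in the other fibroblasts (0.592, 0.492 to 0.710). Rrad, a Ras-related GTPase, was at 99.7 CPM in HFD and 55.6 CPM in NC in myofibroblasts (1.79, 1.23 to 2.65) and at 12.8 and 19.7 CPM in the other fibroblasts (0.649, 0.529 to 0.794). Without the pericyte-like cells its myofibroblast ratio was 2.75 (1.76 to 4.38). Both genes were thus higher in HFD in myofibroblasts and lower in HFD in the other fibroblasts.

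Of the other genes with the higher ratio in myofibroblasts, some differed in direction from the other fibroblasts and some in size. Has1, a hyaluronan synthase, had a ratio of 0.708 (0.560 to 0.893) in myofibroblasts and 0.341 (0.319 to 0.364) in the others. Bambi ran in opposite directions, at 1.82 (1.39 to 2.40) in myofibroblasts and 0.892 (0.824 to 0.965) in the pooled others. By class Bambi was at 0.808 (0.720 to 0.906) in Asc1, 0.932 (0.822 to 1.06) in Gas6 and 1.17 (0.918 to 1.49) in Pi16 fibroblasts. Postn, carried by the pericyte-like cells, also ran in opposite directions, at 2.08 and 0.728 in the pool. Its ratios by class were 0.391 in Asc1, 1.23 (0.684 to 2.16) in Gas6 and 0.786 (0.464 to 1.30) in Pi16 fibroblasts. Ratios were, for Csrp2, a LIM protein of smooth muscle, 1.15 (0.939 to 1.41) in myofibroblasts and 0.625 (0.571 to 0.683) in the others. Ifitm1, an interferon-induced membrane protein, was also named, and without the pericyte-like cells Ifitm1 was at 14.3 CPM in HFD and 13.5 CPM in NC. Apod, apolipoprotein D, had the widest gap but was counted in 4 HFD and 6 NC cells, so its ratio of 7.68 (4.32 to 14.8) describes those cells.

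At the other end, Myh11 had a ratio of 0.659 in myofibroblasts and 1.66 (1.26 to 2.19) in the other fibroblasts, where it was at 10.6 and 6.35 CPM. Mfap4, a microfibril-associated glycoprotein, was at 99.7 CPM in HFD and 88.9 CPM in NC in myofibroblasts (1.12, 0.801 to 1.57) and at 2649 and 1198 CPM in the others (2.21, 2.17 to 2.25). Ccl2 had ratios of 0.341 and 0.787 (0.748 to 0.828), Ccn2 of 0.471 and 0.915 (0.886 to 0.945), and Hspa1a of 0.524 and 0.908 (0.885 to 0.932). The class labelled pericytes was also lower in HFD for these genes, at 0.208 for Ccl2, 0.601 for Ccn2 and 0.323 for Hspa1a. Within the pooled fibroblasts, Ccl2 was at 0.437 in the Pi16 class and 0.963 in the Gas6 class. Fmo2, a flavin monooxygenase abundant in lung, was at 649.6 CPM in HFD and 1036 CPM in NC in myofibroblasts (0.627, 0.559 to 0.702) and had a ratio of 1.06 (1.04 to 1.08) in the others. Wsb1, a subunit of a ubiquitin ligase (0.625 and 1.07), and Ogn, the proteoglycan osteoglycin (0.958 and 1.37), completed this end. In the class labelled pericytes the ratios were 0.961 for Fmo2, 0.841 for Wsb1, 1.35 for Ogn and 1.77 for Mfap4.

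**Figure D5:**
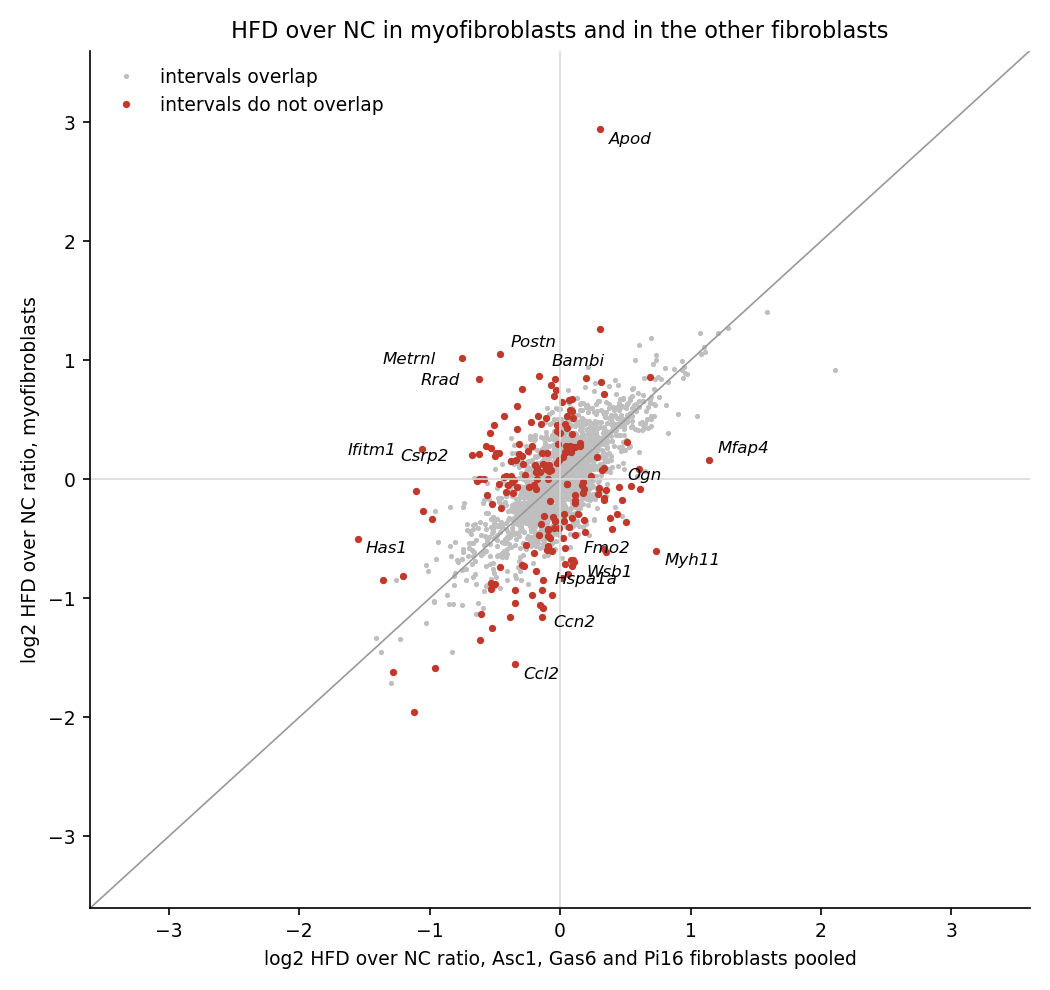
Log2 HFD over NC ratio in myofibroblasts against the same in the pooled Asc1, Gas6 and Pi16 fibroblasts for 2158 genes, with genes whose 95% intervals for counting error do not overlap in red. The diagonal marks equal ratios. Metrnl and Rrad lie above 0 in myofibroblasts and below 0 in the other fibroblasts, and Myh11 lies the other way round.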

How the data were processed

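Single cells of lung stroma, 1 library per diet, were used as deposited. STAR and the mouse build mm39 are named in the submitters' processing notes; the version of STAR and how molecules were counted are not given in the sources used here. The values deposited for 21014 genes are log2 of CPM with a pseudocount of 1, which was found by testing them. The deposited tables also give an estimated count total per cell, mitochondrial and ribosomal shares in percent and, per the file headers, a count of expressed genes. They cover 6971 cells in HFD and 9015 in NC. Taking values off the log2 scale and rounding gave back counts, and 98.8% of HFD and 98.96% of NC values lay within 0.01 of a whole number. The tables hold another column of total counts, equal to the one used for 4.91% of cells in HFD and 94.6% in NC. With it, 7.04% of HFD and 98.96% of NC values were whole, and it was not used. A name table gave 20180 symbols (96.03%).

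Recovered counts varied more than molecules would, so for intervals they were divided by the overdispersion found among rare genes (4.85 in HFD, 3.98 in NC), which gives effective counts. Counts were summed per class and library. Ratios have exact conditional Poisson intervals and shares exact Clopper-Pearson intervals. The computation was tested on simulated data. No doublet caller was run here. Clusters were found with leidenalg 0.10.2 at resolution 0.4 (0.8 added after seeing the data) on a graph of 15 neighbours in 30 components of 2000 variable genes. Python 3.11.15, numpy 2.4.6 and scipy 1.17.1 were used. Ratios were ranked by the interval bound nearest to 1 among genes with at least 100 effective counts and 50 CPM in a library, 12 at each end, leaving out mitochondrial, ribosomal, predicted, haemoglobin and immunoglobulin genes. Class genes needed 50 effective counts and 50 CPM in each library, and up to 4 members per list were named by the same bound, with others for their role. Genes with differing class ratios, 8 at each end, were ranked by the gap between intervals. The members and gene lists were chosen with earlier results of these data known. Some list genes are not reported here. Alternatives covered cell filters, scaling (TMM, median of ratios, mean per cell), leaving out top cells, thinning to 2000 counts, count minimums, the size limit, cells shared with a cluster found here and, chosen after seeing the data, leaving out the pericyte-like cells.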

Additional observations from a re-analysis of the deposited data

Results flagged for a closer look

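Among the 2158 genes with at least 100 effective counts in myofibroblasts, for 3 the HFD over NC ratio ran one way in myofibroblasts and the other way in the pooled Asc1, Gas6 and Pi16 fibroblasts, each by at least 1.5. The ratio of Metrnl was 2.03 in myofibroblasts and 0.592 in the other fibroblasts, that of Rrad 1.79 and 0.649, and that of Myh11 0.659 and 1.66. Below that limit of counts, Plac8 also ran in opposite directions, at 2.07 in myofibroblasts and 0.431 in the other fibroblasts, with 52.4% of its HFD counts in myofibroblasts from 1 cell. With 1 library per diet and class these differences were not tested. The class labelled pericytes, which carries most Myh11, had a Myh11 ratio of 1.21. Its ratios were 1.65 for Rrad, the same direction as in myofibroblasts, and 1.01 for Metrnl.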

How the results depend on the processing

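No paired analysis was possible because there is 1 library per diet. With the stricter cell filter (1000 genes, 5% mitochondrial) the share of myofibroblasts was 6.27% in HFD and 4.69% in NC, 174 genes were higher by size (2280 measured), 20 list genes were higher, and 68 genes had an interval above and 57 below that of the other fibroblasts. Counts of genes higher and lower by size were 3265 and 3156 with no minimum on counts, 56 and 54 with at least 200 effective counts, and 50 and 64 with a size limit of 2. Of 70 recomputed counts and shares, 58 stayed within 1.5 times the main count or within the main interval of a share. The 5 markers highest in the class stayed 5 in each alternative run. TMM and the median of ratios shifted log2 ratios by -0.010 and -0.0060. Of 1047 log2 ratios of named genes, 4 changed sign from a called value and 29 left the main interval. Among cells also in a myofibroblast-like cluster found here, the log2 ratio of Postn was -2.65, its log2 difference from the other fibroblasts -2.19, the log2 ratio of Ltbp2 -0.97 and the median of the pericyte markers -0.095. Without the pericyte-like cluster, an alternative chosen after seeing the data, Ltbp2 was at -0.64 and that median at -0.015. After thinning, the log2 ratio of Plac8 was -0.33, and 1 cell held 52.4% of its HFD counts. The cause of the other changes was not tested, except that these settings leave fewer cells or fewer counts. Genes with few counts have wide intervals, such as that of Fgf2 (0.946 to 2.65).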

Other observations

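Transcription factors of lung mesenchyme gave 2 of 19 measured members higher by size and 1 lower in myofibroblasts. These counts were near the shares over all genes measured, 7.62% higher and 7.94% lower. Tbx5, a T-box factor of lung mesoderm, was at 86.4 CPM in HFD and 50.2 CPM in NC (1.72, 1.15 to 2.60), and Mef2c, a factor of muscle and mesenchyme, at 88.97 CPM in HFD and 55.9 CPM in NC (1.59, 1.08 to 2.37), which missed the limit with no cell filter, with the stricter filter and after thinning. Myocd was the member that was lower. Without the pericyte-like cells 4 of 18 were higher, with Hoxa5 and Nr2f2 added. Of 16 matrix proteases and inhibitors, 3 were lower and none was higher, against the same shares over all genes measured. Plat, tissue plasminogen activator, was at 81.1 CPM in HFD and 127 CPM in NC (0.639, 0.457 to 0.885), and Mmp3, stromelysin 1, was counted in 11 HFD and 27 NC cells, with 86.7% and 60.9% of its counts in the top 5 cells.

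Lipid genes gave 1 of 12 measured members higher, close to the 7.62% of all genes, the desaturase Scd2, at 58.0 CPM in HFD and 30.02 CPM in NC (1.93, 1.15 to 3.30), and none lower. Of 4 measured genes of cholesterol synthesis and its control, 1 was lower, against 7.94% of all genes. This was Insig1, at 24.5 CPM in HFD and 42.2 CPM in NC (0.580, 0.310 to 1.05), with an interval that held 1. Of 4 genes of lysophosphatidic acid synthesis, response and breakdown, none was called (Plpp1 was higher without the pericyte-like cells), and Enpp2 was at 1967 CPM in HFD and 1815 CPM in NC (1.08, 1.01 to 1.17).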
